A study of Mus musculus with 24 samples.

Results

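Iron handling in retinal microglia was described through 6 genes: Fth1 and Ftl1, the heavy and light subunits of ferritin, Slc40a1, the iron exporter ferroportin, Hmox1, the inducible heme oxygenase, Tfrc, the transferrin receptor, and Slc11a1, the phagosomal metal transporter NRAMP1. They were chosen by name, and each had 1 row among the 47729 gene IDs of the deposited tables. All 6 passed the filter on low counts in every comparison. RNA was measured in 24 retinas of 15 mice, with 1 library per retina. The glaucoma strain DBA/2J has the genotype Gpnmb-/- Tyrp1b-/-, and was sampled at 12 months (10 retinas of 5 mice) and at 6 months (5 retinas of 5 mice, titled early disease). The control strain DBA/2J Gpnmb+, called Gpnmb+ here, has the genotype Gpnmb+/+ Tyrp1b-/- and was sampled at 12 months (9 retinas of 5 mice), so all groups carried the Tyrp1b allele. No treatment was given. The 12-month DBA/2J retinas were graded by the submitters: 3 retinas of 2 mice as mild, 4 of 3 mice as moderate and 3 of 2 mice as severe, and mice 1 and 5 had eyes of different grades. Microglia were sorted by CD11b and Fcrls, without Ly6c, and each library came from 100 to 600 cells, which limits the precision of genes with few transcripts.

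Cells take up iron bound to transferrin through the transferrin receptor, keep it in a shell of ferritin subunits, and release it through ferroportin, whose iron is oxidised outside the cell by ceruloplasmin or hephaestin. The heavy ferritin subunit oxidises iron and the light subunit helps to build the mineral core. Microglia and other macrophages also gain iron from engulfed cells: heme oxygenase opens the heme ring, and NRAMP1 moves metal ions out of the phagosome. DBA/2 mice carry the working form of Slc11a1, whereas the C57BL/6 reference genome carries the defective one.

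Much of this system is set by iron-responsive elements, short RNA hairpins that are bound by iron regulatory proteins when iron is scarce. In a 5′ UTR the bound protein blocks translation, and in the 3′ UTR of Tfrc it protects the transcript. The hairpins below were found in the transcripts of the GENCODE M21 annotation (GRCm38, the build that mm10 also names) and are shown because they divide the 6 genes by the kind of control that RNA counts can and cannot register. Each line is written 5′ to 3′ on the strand of the gene, and the capitals mark the loop of 6 bases.
Fth1, 5′ UTR, chr19:9982738-9982754, + strand: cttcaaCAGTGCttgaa
Ftl1, 5′ UTR, chr7:45459785-45459801, − strand: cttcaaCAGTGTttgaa
Slc40a1, 5′ UTR, chr1:45925471-45925487, − strand: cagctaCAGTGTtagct
Tfrc, 3′ UTR, chr16:32631225-32631241, + strand: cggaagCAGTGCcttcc
Tfrc, 3′ UTR, chr16:32631604-32631620, + strand: cgggagCAGTGTcttcc
Tfrc, 3′ UTR, chr16:32631669-32631685, + strand: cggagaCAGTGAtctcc
Tfrc, 3′ UTR, chr16:32631716-32631732, + strand: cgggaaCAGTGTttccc
The pattern searched was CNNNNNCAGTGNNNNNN on the transcript strand alone, with all 5 stem bases on either side of the loop paired, G-T pairs allowed. It occurred in 565 of 58797 coding transcripts, or 0.96%. The stems of the Fth1 and Ftl1 elements have the same letters. No match was found in the coding transcripts of Hmox1 or Slc11a1. Not all coding transcripts of the other genes held one. The match was in 4 of 5 for Fth1, 1 of 2 for Ftl1 and 1 of 4 for Slc40a1, and each Tfrc match in 1 of 3. The counts per gene do not separate these transcripts. A match is a description of letters and not a measured binding site. A change in the translation of Fth1, Ftl1 or Slc40a1 would not appear in these counts.

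Library totals ran from 977873 to 20081047 counts, and 2 retinas had less than 20% of the median total of 11353005. Of the 9 Gpnmb+ retinas, 5 had counts for fewer than 10000 genes (both eyes of mice 1 and 2 and the right eye of mouse 3). The lowest had 3466, while no DBA/2J retina had under 10693. Within DBA/2J the libraries also differed by age. Those of 6 months had 12043862 to 17992997 counts and 13809 to 16706 genes. Those of 12 months had 1706745 to 20081047 counts and 10693 to 15037 genes. Gpnmb had counts in 1 of the 9 Gpnmb+ retinas and in none of the 15 DBA/2J retinas, and Tyrp1 in none of 24, so these counts check the genotype labels little. All 10 microglia markers were detected in every group, with summed levels of 24270 to 34260 CPM per mouse (counts per 1e6 counts of the library after scaling) in the 12-month DBA/2J mice, 17710 to 30420 CPM for the control mice, and 28690 to 31810 CPM at the age of 6 months. Of 7 red cell markers only Alas2 had counts, at most 11.01 CPM, and the globin genes were at 0. Summed pigment cell markers were at most 23.2 CPM and endothelial ones at most 109.5 CPM. All 5 neutrophil markers were at 0 in DBA/2J.

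The 6 genes covered a wide range of levels. On the scale of TPM, which corrects for transcript length, the ferritin subunits were the highest in all groups, with means of 3930 ± 907 (Fth1) and 3241 ± 676 (Ftl1; SD, n = 5 mice) at 12 months in DBA/2J. Slc11a1 followed at 251.9 ± 56.9 TPM. Below it Hmox1 (27.4 ± 7.20 TPM) and Slc40a1 (24.2 ± 15.8 TPM) did not differ beyond their spread. Tfrc was the lowest at 1.92 ± 3.43 TPM, under the lowest Hmox1 value of 22.1 TPM in all 5 mice. At 6 months the order placed Slc40a1 (56.9 ± 11.1 TPM) before Hmox1 (30.8 ± 21.6 TPM), with overlapping ranges.

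Genes were compared between groups with edgeR's quasi-likelihood test on counts summed over the eyes of a mouse, so that the mouse was the replicate, with two-sided tests and the Benjamini-Hochberg adjustment over all genes tested. None of the 6 genes passed an adjusted p of 0.05 in any of the 7 comparisons. The same holds for all genes tested, with 0% called in each comparison. Given here are therefore levels, log2 fold changes with their standard errors, and unadjusted p-values read against the share of all genes that reached the same value. Nothing in the labels says that mice were raised or sorted separately, so p-values measure the spread between these mice, which may in part be technical.

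Between 12-month DBA/2J and Gpnmb+, which asks what differs in the glaucoma strain at 1 age, 1 of the 6 genes, Fth1, had an unadjusted p under 0.05, where 5.2% of 12977 genes did (675 genes, 357 higher and 318 lower in DBA/2J). DESeq2 called 226 genes in this comparison and none of the 6. Between 12-month and 6-month DBA/2J, which sets later against early disease in 1 strain, it was again Fth1, against 3.65% of all genes (474). Between 6-month DBA/2J and Gpnmb+, where strain and age differ together, none of the 6 had such a p, against 3.77% of all genes (489). DESeq2 called 148 and 179 genes in these, again none of the 6. The 3 comparisons share their groups of mice and are not independent of each other. The median log2 fold change of the 6 genes was 0.25, 0.27 and -0.15 in this order, beside 0.05, 0.01 and 0.03 over all genes tested.

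**Figure D1:**
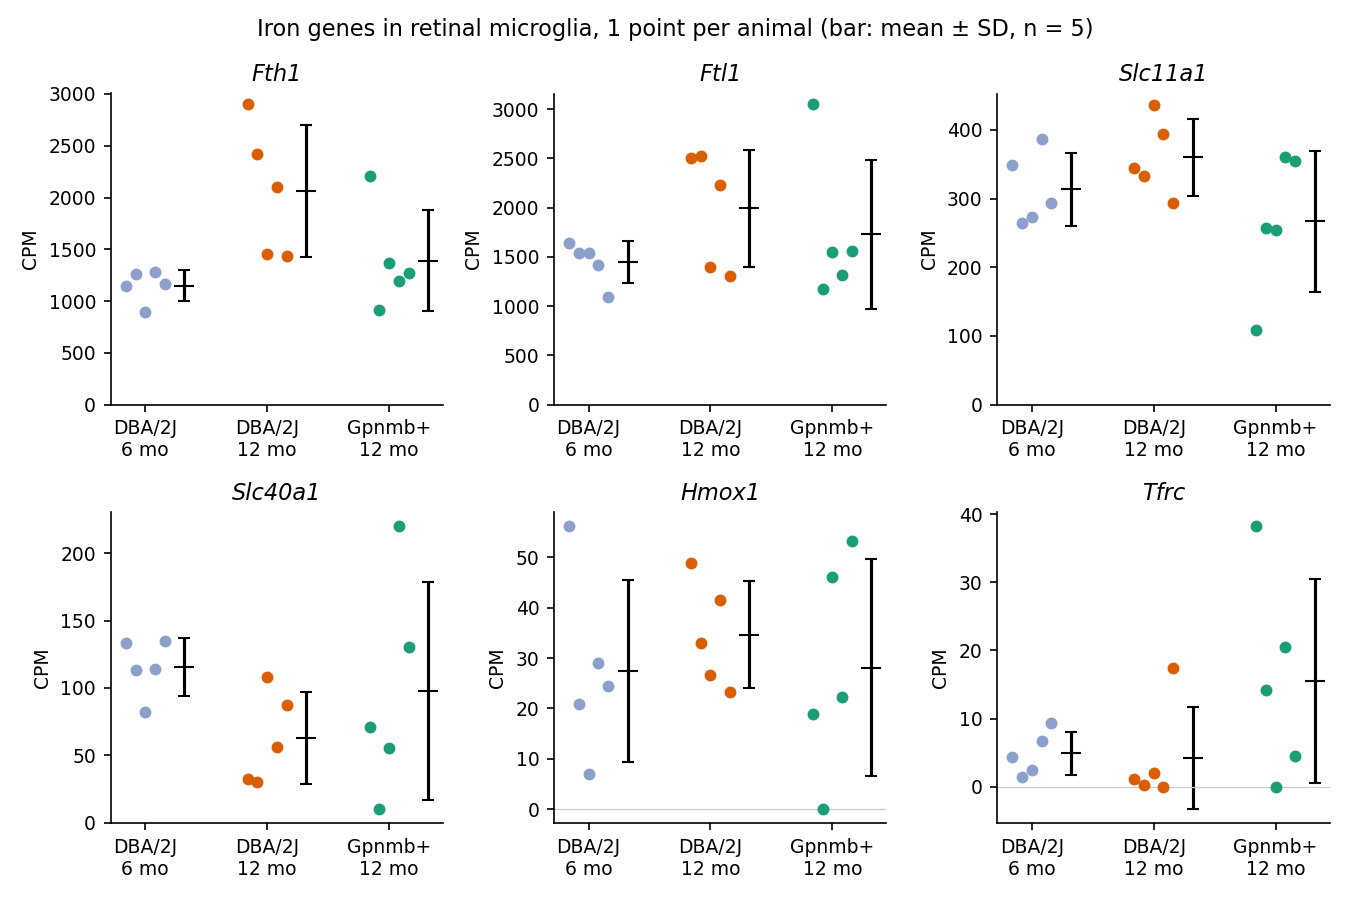
Level of each of the 6 iron genes in CPM (linear vertical axes, scales differ between panels), with 1 point per mouse and the mean ± SD (n = 5) as a bar, for DBA/2J at 6 and 12 months and Gpnmb+ at 12 months. The 5 points of Fth1 at 12 months in DBA/2J, 1431 to 2904 CPM, all lie above the 6-month points, 897.8 to 1283 CPM, while the groups of the other genes overlap.

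Fth1 (chromosome 19, 9980598 to 9985098, + strand), which encodes the subunit with ferroxidase activity, was measured at 2904, 2423, 1454, 2100 and 1431 CPM in the 12-month DBA/2J mice 1 to 5. The Gpnmb+ mice had 2212, 910.1, 1369, 1197 and 1270 CPM, and the 6-month DBA/2J mice 1145, 1259, 897.8, 1283 and 1162 CPM. The 12-month DBA/2J mice all stood above the 6-month mice, and 2 of them, mice 1 and 2, above all Gpnmb+ mice, whose mouse 1 lay among the high DBA/2J values. Groups that do not overlap were found for 2.47% of all genes (320) between the ages and for 1.12% (145) between 12-month DBA/2J and Gpnmb+. The same share, 1.12%, held for 6-month DBA/2J against Gpnmb+, where none of the 6 genes was among them.

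Between the ages, Fth1 had a log2 fold change of 0.84 ± 0.24 (SE; edgeR p = 0.00216, adjusted p = 0.685), which ranked 41 of 12977 genes by p. It was between 0.49 and 0.86 in 10 alternative analyses and between 0.69 and 0.97 when any 1 mouse was left out, and the adjusted p was at least 0.18 in all of them. Against Gpnmb+ the log2 fold change was 0.57 ± 0.23 (edgeR p = 0.0265, adjusted p = 0.794; rank 433). It was 0.41 without DBA/2J mouse 1, 0.45 without Gpnmb+ mouse 2 and 0.80 without Gpnmb+ mouse 1. With single retinas and a random mouse effect it was 0.31, where the median over all genes was 0.59. The unadjusted p stayed under 0.05 in 5 of 10 analyses that left out 1 mouse (up to 0.0958) and in 7 of 10 alternatives, and was 0.0699 with DESeq2 and 0.145 with single retinas. Between 6-month DBA/2J and Gpnmb+ it was -0.28 ± 0.23 (p = 0.254, adjusted p = 1.00, edgeR). In sorted bulk RNA, a different number of cells with much Fth1 and a different amount of Fth1 per cell cannot be told apart. Depth differed between the ages as well. The highest single retinas, 4635 CPM (mouse 1, right eye) and 3371 CPM (mouse 4, left eye) of the library total, had 4983359 and 1706745 counts. Beyond leaving out shallow retinas, the part of depth in the Fth1 values was not tested.

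Lyz2, a lysozyme gene of monocytes and other myeloid cells, was measured beside Fth1 because it made up nearly all of the summed monocyte markers (85.6 to 99.84% per mouse). It had 1355, 1195, 473.5, 802.1 and 459.3 CPM in 12-month DBA/2J mice 1 to 5, the same order of mice as for Fth1. In the control mice 1 to 5 it had 172.3, 111.1, 360.7, 111.7 and 486.8 CPM and in the 6-month mice 320.6, 140.0, 40.8, 89.5 and 207.5 CPM, where the order of mice differed from that of Fth1. Of the 6 monocyte markers, Ly6c2, Plac8 and Chil3 were at 0 in all 12-month DBA/2J mice. Lyz2 was singled out after its values were seen. Summed markers of border-associated macrophages and rods also had their highest median in the group with the highest Fth1. Other classes had it at 6 months, where Fth1 was lowest: microglia (30340 CPM), Muller glia and astrocytes (347.9), pigment cells (3.03) and endothelium (34.4). In 12-month DBA/2J these medians were 26210, 313.6, 2.44 and 12.0 CPM. Red cell and neutrophil medians were at most 0.0332 CPM in any group. Summed border-associated macrophage markers (7 of 7 detected at 12 months in both strains, 6 of 7 at 6 months, where Lyve1 was at 0) had medians of 75.7 CPM in 12-month DBA/2J (12.1 to 194.4), 29.0 in Gpnmb+ (0.0909 to 119.5) and 2.10 at 6 months (0.153 to 90.4). Summed rod markers, all 10 detected in each group, had medians of 1873 CPM (363.6 to 2169), 747.3 CPM (383.6 to 7951) and 406.4 CPM (202.7 to 1998). Like Fth1, Lyz2 did not overlap between the ages, with 459.3 to 1355 CPM at 12 months and 40.8 to 320.6 CPM at 6 months in DBA/2J. This was true of 2.47% of all genes. The border-associated macrophage and rod sums overlapped between all groups. The part of Lyz2 and of these markers in the Fth1 values was not tested.

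Ftl1 (chromosome 7, 45457944 to 45459884, − strand), the light subunit, had 2503, 2521, 1397, 2234 and 1305 CPM in 12-month DBA/2J mice 1 to 5. In Gpnmb+ it had 3055, 1175, 1549, 1318 and 1558 CPM, and at 6 months 1638, 1543, 1543, 1416 and 1088 CPM. The groups overlapped, and the highest value of all was a Gpnmb+ mouse, although 3 of the 12-month DBA/2J mice stood above all 6-month mice. Its log2 fold change was 0.20 ± 0.25 against Gpnmb+ (edgeR p = 0.433, adjusted p = 0.999) and 0.46 ± 0.25 between the ages (p = 0.0845, adjusted p = 1.00). The value against Gpnmb+ moved most with Gpnmb+ mouse 1: without it the log2 fold change was 0.51 (edgeR p = 0.0258, adjusted p = 0.603), and without the 5 retinas with few genes 0.44 (edgeR p = 0.0724, adjusted p = 0.703). It was 0.10 without DBA/2J mouse 2, 0.09 without Gpnmb+ mouse 2 and 0.02 with single retinas, where the median over all genes was 0.59. Between 6-month DBA/2J and Gpnmb+ it was -0.26 ± 0.25. Across the 15 mice, log2 CPM of Ftl1 and Fth1 had a Pearson r of 0.84, the highest among the pairs of these 6 genes, over mice that share groups and depth.

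The balance of the subunits was read from TPM, as Ftl1 over Fth1 in each mouse. The ratio was 0.720, 0.907, 0.811, 0.910 and 0.800 in 12-month DBA/2J mice 1 to 5, and 1.17, 0.938, 0.950, 0.944 and 1.05 in Gpnmb+. All 5 DBA/2J ratios were below the lowest Gpnmb+ ratio, the closest being 0.910 against 0.938. They were below 1, as were those of Gpnmb+ mice 2, 3 and 4. Reads counted in rows of near-identical ferritin copies, described below, are left out of the ratio. Their share was 7.37 to 10.1% per retina for Ftl1 and at most 0.628% for Fth1, so the position of a ratio against 1 is uncertain. How often other pairs of genes separate these groups was not counted. The 6-month ratios, from 0.803 to 1.47 with a mean of 1.10 ± 0.26, overlapped both groups. This ratio was formed after the levels were seen and is given with no test.

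Ferritin genes have many copies without introns, and reads of near-identical rows may have been divided among them by the counting. Any match to Ftmt or to a gene named Fthl17 was left out by name, so such genes are not in the numbers that follow. For Fth1 this left 2 rows in the files, Gm6977 (90.46% identical over 524 aligned bases, 631 counts in all 24 retinas together) and Fth-ps2 (295 counts). Together they held 0.243% of the Fth1 reads (0.113 to 0.628% per retina). For Ftl1 there were 33 rows, holding 8.55% of its reads (7.37 to 10.1% per retina). Nearly all of this was Ftl1-ps1 on chromosome 13 (74399694 to 74407346, + strand), with 37691 counts, which is annotated as protein coding and matches Ftl1 at 99.56% of 910 aligned bases of a 968-base transcript. The next were Gm15590 with 518 counts, Gm22133 with 359, a microRNA row that lies inside the Ftl1 locus, Gm12164 with 185 and Ftl1-ps2 with 111, while 18 of the 33 rows had 1 to 82 counts and 10 had none.

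Adding these rows to their parent genes left the log2 fold changes of Fth1 at 0.57 and 0.84 in the same comparisons, values that a share of 0.243% could hardly move. Over the 10 alternatives, this one among them, Ftl1 ranged from 0.02 to 0.44 against Gpnmb+ and from 0.17 to 0.48 between the ages. The share of Ftl1 reads in look-alike rows is an uncertainty of the Ftl1 level, of similar size in all retinas.

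Slc40a1 (chromosome 1, 45908068 to 45926523, − strand), the only known iron exporter of mammalian cells, had 32.2, 30.2, 107.8, 56.1 and 87.4 CPM in 12-month DBA/2J mice 1 to 5. The 6-month mice had 133.0, 113.3, 81.8, 114.2 and 134.9 CPM, and Gpnmb+ mice 71.1, 10.2, 55.5, 220.0 and 130.6 CPM. Of the 12-month DBA/2J mice 3 were below all 6-month mice, while the Gpnmb+ mice ranged below and above both other groups. The log2 fold change was -0.88 ± 0.56 between the ages (edgeR p = 0.135, adjusted p = 1.00) and -0.64 ± 0.56 against Gpnmb+ (p = 0.271, adjusted p = 0.999). The latter was -0.08 without Gpnmb+ mouse 4 and -1.21 without the 5 retinas with few genes (p = 0.00942, adjusted p = 0.661), and between -1.21 and -0.32 over the 10 alternatives. Between 6-month DBA/2J and Gpnmb+ it was 0.24 ± 0.56, and the coefficient of variation was 83.0% in Gpnmb+ against 18.5% at 6 months.

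Hmox1 (chromosome 8, 75093621 to 75100589, + strand) frees iron from heme and is a classic oxidative stress gene. It had 49.0, 32.9, 26.7, 41.5 and 23.3 CPM in 12-month DBA/2J, 18.9, 0, 46.0, 22.2 and 53.3 CPM in Gpnmb+, and 56.2, 20.8, 6.94, 29.1 and 24.5 CPM at 6 months. The groups overlapped throughout. The log2 fold changes were 0.30 ± 0.89 and 0.33 ± 0.89 for 12-month DBA/2J against Gpnmb+ and against 6 months, and -0.03 ± 0.89 for the other pair (edgeR p from 0.711 to 0.971). The first of these ran from -0.06 to 1.54 over 10 alternatives. With such errors, a change in either direction by 1 log2 unit was not detectable. Gpnmb+ mouse 2 had no Hmox1 count in either retina, which in the deeper of these allows up to 0.803 CPM.

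Slc11a1 (chromosome 1, 74375195 to 74386062, + strand) had 344.7, 333.4, 436.6, 394.3 and 292.9 CPM in 12-month DBA/2J mice 1 to 5. The Gpnmb+ mice had 108.3, 257.7, 254.1, 361.2 and 354.4 CPM, and the 6-month mice 349.2, 264.0, 272.9, 387.5 and 293.0 CPM. The groups overlapped, with 2 DBA/2J mice above all Gpnmb+ mice and Gpnmb+ mouse 1 far below all others. The log2 fold change was 0.43 ± 0.27 against Gpnmb+ (edgeR p = 0.127, adjusted p = 0.999), 0.20 ± 0.27 between the ages and 0.23 ± 0.27 for 6-month DBA/2J against Gpnmb+. Against Gpnmb+ at 12 months it was 0.23 without Gpnmb+ mouse 1, 0.20 without the 5 retinas with few genes, and 0.60 without Gpnmb+ mouse 4 (edgeR p = 0.0495, adjusted p = 0.740). With single retinas it was 0.92, where the median over all genes was 0.59. Low values came from the retinas with few genes: 0 counts in the right eye of Gpnmb+ mouse 2, which allows up to 3.07 CPM, and 7.51 CPM in the left eye of mouse 1, beside 344.3 and 165.3 CPM in their other eyes.

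Tfrc (chromosome 16, 32608920 to 32632794, + strand), the receptor for iron-loaded transferrin, was low on average and uneven between retinas. It had 1.14, 0.302, 2.05, 0 and 17.4 CPM in 12-month DBA/2J, 38.2, 14.2, 0, 20.6 and 4.58 CPM in Gpnmb+, and 4.42, 1.49, 2.49, 6.65 and 9.38 CPM at 6 months. No count was found in 5 of 10 retinas of 12-month DBA/2J and in 4 of 9 of Gpnmb+, each allowing up to 0.214 to 1.76 CPM, whereas all 5 retinas at 6 months had counts. The 2 retinas of a mouse often disagreed, as with 53.5 and 0.146 CPM in Gpnmb+ mouse 1 and 72.6 and 0 CPM in mouse 2. The log2 fold changes were -1.88 ± 1.54 against Gpnmb+, -0.22 ± 1.49 between the ages and -1.66 ± 1.53 for 6-month DBA/2J against Gpnmb+ (edgeR p from 0.238 to 0.886). Without DBA/2J mouse 5 the first was -4.09 (edgeR p = 0.0322, adjusted p = 0.729) and the second -2.43. The first was -0.98 without the 5 retinas with few genes, -1.22 without Gpnmb+ mouse 1 and -3.01 with the animal number as a block.

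**Figure D2:**
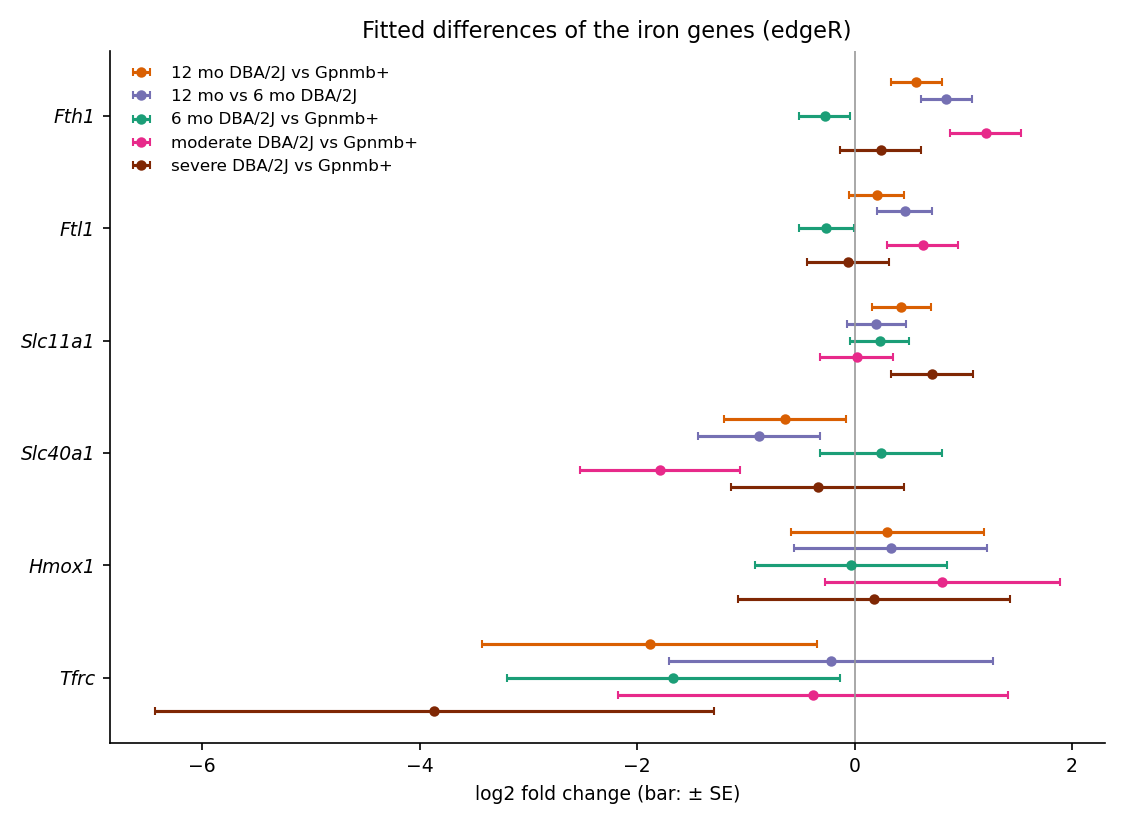
Fitted log2 fold change of each iron gene (horizontal axis, bars ± SE, edgeR) in 5 comparisons, 3 between groups of 5 mice and 2 between graded retinas and Gpnmb+. Fth1 lies above 0 in 4 of the 5 and Slc40a1 below 0 in 4 of the 5, the moderate retinas are farthest from 0 for both, and the bars of Hmox1 and Tfrc are several times wider than those of Fth1. Mild retinas are left out because Tfrc had no count there and its fitted value has no meaning as a size.

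Grades were compared with Gpnmb+ on counts summed over the eyes of a mouse with the same grade, which gave 2 mild, 3 moderate and 2 severe sums and treats the differing eyes of mice 1 and 5 as independent. Of the 6 genes, 1 (Tfrc) had an unadjusted edgeR p under 0.05 in mild retinas, against 5.42% of 15965 genes (865). In moderate retinas there were 2, Fth1 and Slc40a1, against 8.47% (1353). In severe retinas there was none, against 4.27% (682). DESeq2 called 518, 268 and 236 genes in the mild, moderate and severe retinas, of the 6 only Tfrc in mild retinas. The median log2 fold change of the 6 genes was -0.01, 0.33 and 0.06, beside -0.11, -0.02 and -0.06 over all genes.

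In moderate retinas Fth1 had 5275, 2397 and 1848 CPM (mice 1, 2 and 5). Mild retinas had 2110 and 926.3 CPM, severe retinas 1783 and 1461 CPM, and the Gpnmb+ mice 853.1 to 2217 CPM in this fit. Of the 3 moderate sums 2 stood above all Gpnmb+ mice, and the value of mouse 1 stood far above all others. The log2 fold change against Gpnmb+ was 1.21 ± 0.33 (edgeR p = 0.00144, adjusted p = 0.579; rank 37 of 15965), and 0.64 ± 0.30 without DBA/2J mouse 1. It was 0.14 ± 0.38 for mild and 0.24 ± 0.38 for severe retinas. Without the filter on low counts, its adjusted p in moderate retinas was 0.0011. Whether grades differ from each other was tested only as the trend given below.

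Ftl1 had 3889, 2494 and 1539 CPM in moderate retinas, 2245 and 1028 in mild and 1880 and 1403 in severe ones, beside 1101 to 3061 in Gpnmb+. Its log2 fold change in moderate retinas was 0.63 ± 0.33 (edgeR p = 0.0684, adjusted p = 0.606) and 0.25 without DBA/2J mouse 1. In mild and severe retinas it was -0.06 ± 0.38 in each.

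For Slc40a1 the moderate sums were the low ones, with 10.7, 29.8 and 43.0 CPM (mice 1, 2 and 5). Mild retinas had 56.4 and 144.1 CPM, severe retinas 44.6 and 108.2 CPM, and Gpnmb+ mice 9.57 to 217.6 CPM. All 3 moderate sums were below all mild and severe sums, as was true of 2.89% of 15965 genes (461), and of Slc11a1 among the 6. Single retinas did not stand apart in this way. Moderate eyes, at 9.43 to 45.2 CPM of the library total, overlapped severe eyes at 26.1 and 41.0, and 1 mild eye had 46.3. In either direction the moderate sums stood apart for 5.81% of genes (928). Among the Gpnmb+ mice only the shallow mouse 2 was as low. The log2 fold change against Gpnmb+ was -1.79 ± 0.74 (edgeR p = 0.0247, adjusted p = 0.579), between -2.25 and -1.25 when any 1 mouse was left out, with an unadjusted p under 0.05 in 7 of these 10 analyses. It was 0.05 ± 0.78 for mild and -0.34 ± 0.80 for severe retinas.

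Hmox1 had 76.7, 32.6 and 37.2 CPM in moderate, 41.7 and 6.08 in mild, and 36.4 and 26.8 in severe retinas, with log2 fold changes of 0.81 ± 1.08, -0.23 ± 1.27 and 0.18 ± 1.25 against Gpnmb+. Slc11a1 was ordered differently from Fth1, and its moderate sums too were below the others. It had 224.0, 329.8 and 245.4 CPM in moderate, 396.3 and 355.9 in mild and 421.1 and 438.5 in severe retinas. By single retinas Slc11a1 overlapped, with 353.2 CPM of the library total in 1 moderate, 281.2 in 1 severe and 274.2 in 1 mild eye. Its log2 fold change was 0.71 ± 0.37 in severe (edgeR p = 0.0707, adjusted p = 0.981), 0.52 ± 0.38 in mild and 0.02 ± 0.34 in moderate retinas. Tfrc had no count in any of the 3 mild retinas. Against Gpnmb+ the edgeR p was 0.010 (adjusted p = 0.795) and the DESeq2 adjusted p was 0.0017. A limit of 3 counts per sum, for counting error only, was 48.3-fold below the Gpnmb+ mean of 15.3 ± 15.1 CPM (SD). This ratio is no minimum difference between the groups. No count was found in 4 of 9 Gpnmb+ retinas, and the eyes of 1 mouse differed by a median of 6.27 log2 units. Of the Gpnmb+ mice 1 also had no Tfrc count, and the moderate sums, 0.298 to 31.6 CPM, and severe sums, 0 and 2.06 CPM, were spread over the same range.

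**Figure D3:**
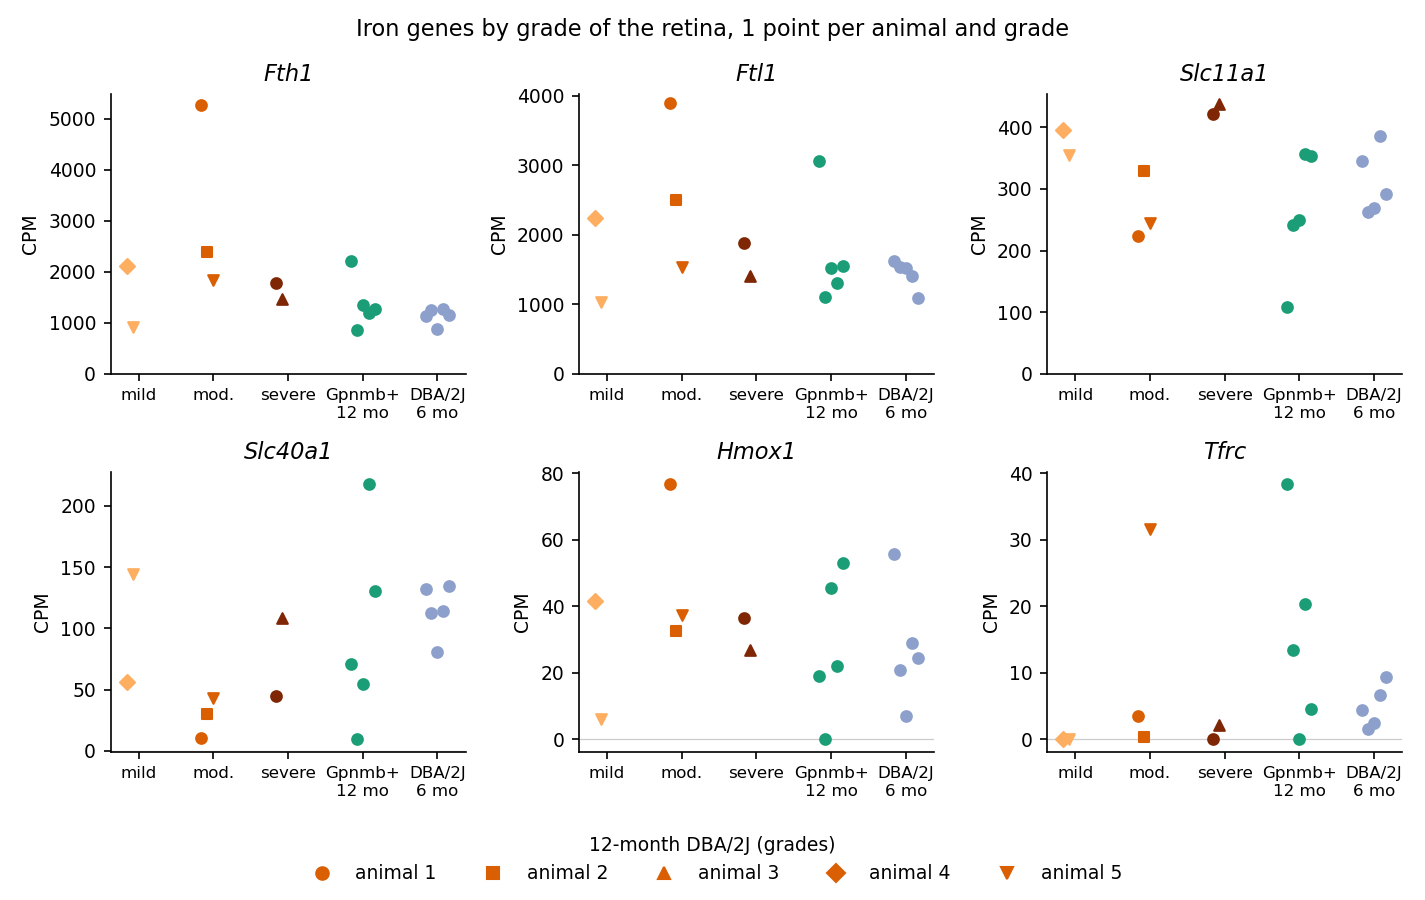
Level of each iron gene in CPM (linear axes, scales differ) by grade of the 12-month DBA/2J retinas, with 1 point per mouse and grade, and 1 point per mouse for Gpnmb+ and 6-month DBA/2J. Marker shapes tell the DBA/2J mice apart. In the Fth1 panel moderate mouse 1 stands at 5275 CPM. In the Slc40a1 panel the 3 moderate sums, 10.7 to 43.0 CPM, are below the mild and severe ones, as for 2.89% of all genes. Single moderate and severe retinas, not shown here, overlapped for Slc40a1.

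Levels of other transcripts by grade are given with no test, from 3 moderate sums. Among single genes, the moderate sums did not overlap the mild and severe ones for 5.81% (928 of 15965). Summed border-associated macrophage markers were 131.8 to 467.1 CPM in moderate sums, 6.38 to 12.1 in mild, 28.2 to 33.9 in severe and 0.0911 to 112.1 in Gpnmb+. Summed rod markers were 1853 to 4999 CPM in moderate, 365.4 to 533.0 in mild, 780.3 to 928.4 in severe and 382.8 to 7453 in Gpnmb+. Lyz2 was at 2646, 1182 and 603.7 CPM in moderate mice 1, 2 and 5, 806.1 and 284.1 in mild and 735.0 and 475.6 in severe. Summed microglia markers were 15160 to 25930 CPM in moderate, 25350 to 32830 in mild, 33030 to 34410 in severe and 16600 to 30360 in Gpnmb+, so the moderate sums were below the severe ones and overlapped the mild and Gpnmb+ ones. The part of these transcripts in the values of Fth1 and Slc40a1 was not tested.

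A trend over the grades scored 0, 1 and 2 within 12-month DBA/2J, on 7 sums, gave none of the 6 genes an unadjusted edgeR p under 0.05, against 1.43% of 12019 genes (172). DESeq2 called 128 genes and none of the 6. The log2 change per grade was 0.04 ± 0.43 for Fth1, -0.01 ± 0.35 for Ftl1, -0.20 ± 0.43 for Slc40a1, 0.19 ± 0.62 for Hmox1 and 0.09 ± 0.23 for Slc11a1. A trend of this kind does not register a gene that is high or low in the middle grade.

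The paired eyes show how far retinas of 1 mouse could differ. In mouse 1 the moderate eye had 4635 and the severe eye 1639 CPM of Fth1 (CPM of the library total, used for single retinas), and 9.43 and 41.0 CPM of Slc40a1. In mouse 5 the moderate eye had 1945 and the mild eye 987.0 CPM of Fth1, and 45.2 and 153.5 CPM of Slc40a1. In both mice with eyes of different grades, the moderate eye thus had more Fth1 and less Slc40a1 than its partner. Differences of similar size were present between eyes of the same grade: 1569 and 3371 CPM of Fth1 in the mild eyes of mouse 4, whose second library had only 1706745 counts, and 26.1 and 148.6 CPM of Slc40a1 in the severe eyes of mouse 3. Over the 9 mice with both eyes, the median absolute log2 difference between eyes was 0.21 for Ftl1, 0.37 for Fth1, 0.55 for Slc11a1, 0.66 for Slc40a1, 1.93 for Hmox1 and 6.27 for Tfrc.

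**Figure D4:**
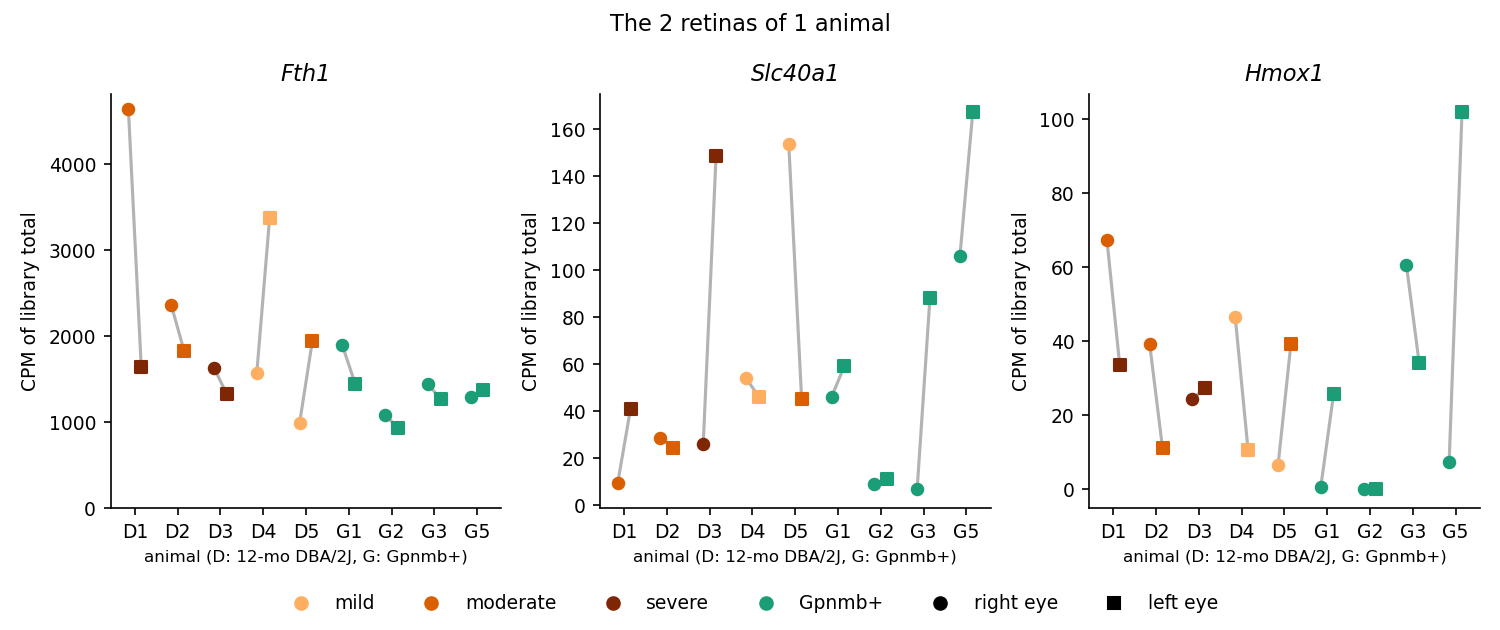
Levels of Fth1, Slc40a1 and Hmox1 in both retinas of each mouse with 2 libraries, in CPM of the library total (linear axes), joined by a line, with the grade as colour and the eye as shape. D1 to D5 are 12-month DBA/2J mice and G1, G2, G3 and G5 Gpnmb+ mice. The moderate eye of D1 has 4635 CPM of Fth1 against 1639 in its severe partner, while the Gpnmb+ pairs of Fth1 lie close together.

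Genes around the 6 were taken from lists of iron uptake and trafficking, iron export, iron sensing, heme handling and NRF2 targets. Of the 20 uptake and trafficking genes 16 were tested between the groups, and none had an unadjusted edgeR p under 0.05 in the 3 comparisons. The same held for the 4 of 5 iron sensing genes that were tested, among them the iron regulatory proteins Aco1 and Ireb2, and for the 9 of 11 heme genes that were tested. The median log2 fold change between the ages was 0.22 for uptake, -0.30 for sensing and 0.48 for heme genes, beside 0.01 over all genes.

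In the export list 3 of 8 genes passed the filter on low counts. Cp, which encodes the ferroxidase ceruloplasmin that works with ferroportin, was the 1 gene with an unadjusted p under 0.05 in 12-month DBA/2J against Gpnmb+. It had 35.0, 43.4, 30.6, 23.3 and 33.0 CPM in 12-month DBA/2J mice 1 to 5 and 0.0909, 0, 9.73, 2.25 and 9.16 CPM in Gpnmb+. The 2 groups did not overlap, as for 1.12% of all genes (145), and Cp was named for its p in this same comparison. Gpnmb+ mice 1 and 2, the lowest, had fewer than 10000 genes with counts in both retinas. At 6 months 4 of 5 mice (3.13, 4.27, 5.81 and 14.3 CPM) were below the range of 12-month DBA/2J, with the fifth at 31.0 CPM. The log2 fold change against Gpnmb+ was 2.95 ± 1.17 (edgeR p = 0.0217, adjusted p = 0.737). It was between 2.14 and 4.49 in 10 alternative analyses, none of which gave an adjusted p under 0.0861. The value of 4.49 came from single retinas, where the median over all genes was 0.59. For moderate retinas against Gpnmb+ it was 3.64 ± 1.35 (edgeR p = 0.0144, adjusted p = 0.579), with 57.1, 42.9 and 58.5 CPM in the moderate sums, 24.9 and 30.7 in the severe and 1.502 and 23.44 in the mild ones. Summed Muller glia and astrocyte markers, a cell class that also makes ceruloplasmin, spanned 277.8 to 418.6 CPM for the 12-month DBA/2J group and 143.8 to 698.5 CPM for the controls, with Gfap at 0 in all groups.

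Of the uptake genes, Hfe, a partner of the transferrin receptor, had 212.2, 215.9 and 82.8 CPM in moderate retinas and 20.2 to 118.7 in Gpnmb+ (log2 fold change 1.13 ± 0.52, edgeR p = 0.0414, adjusted p = 0.585). The unadjusted p stayed under 0.05 in 4 of 10 analyses that left out 1 mouse. Its change per grade was 0.99 ± 0.45 (p = 0.0473, adjusted p = 1.00, edgeR), with 50.02 and 29.58 CPM in mild and 151.6 and 169.1 in severe sums. Without mouse 5 the change per grade was 0.54 (edgeR p = 0.282, adjusted p = 1.00), and the unadjusted p stayed under 0.05 in 2 of 5 such analyses. Slc39a8, a transporter of zinc and iron, changed by -2.58 ± 0.97 per grade (p = 0.0211, adjusted p = 1.00, edgeR), from 38.8 CPM in mild to 7.38 in moderate and 1.06 in severe retinas on average. DESeq2 gave it an adjusted p of 0.0171, and the edgeR p stayed under 0.05 in 3 of 5 analyses that left out 1 mouse. Trf, which encodes transferrin itself, was 0.81 ± 0.38 higher on the log2 scale in severe retinas (edgeR p = 0.0442, adjusted p = 0.981), at 1828 and 2155 CPM beside 507.8 to 1791 in Gpnmb+. Without the 5 retinas with few genes this was 0.33 (edgeR p = 0.316, adjusted p = 1.00), and the unadjusted p stayed under 0.05 in 3 of 7 alternatives. Trf was the most abundant of these, with 1281 to 1820 CPM at 12 months and 1438 to 1694 CPM at 6 months in DBA/2J.

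Among the NRF2 targets and regulators, a program that also drives Hmox1 and both ferritin genes, 16 of 18 were tested between the groups. None had an unadjusted edgeR p under 0.05 with a higher level in 12-month DBA/2J than in Gpnmb+, and 2 had one with a lower level: Gsr, glutathione reductase, at 0 to 1.49 CPM against 0.0604 to 16.5 (p = 0.0437, adjusted p = 0.934), and Mafk, a partner of NRF2, with a log2 fold change of -1.42 ± 0.67 (p = 0.0483, adjusted p = 0.953, edgeR). Of all 12977 genes tested, 318 had an unadjusted p under 0.05 with a lower level and 357 with a higher one. For both Gsr and Mafk, the unadjusted p stayed under 0.05 in 2 of 10 analyses that left out 1 mouse. Sqstm1, an autophagy receptor, was highest at 6 months with 312.6 ± 96.4 CPM, beside 210.1 ± 59.8 at 12 months in DBA/2J (log2 fold change -0.57 ± 0.26 between the ages, edgeR p = 0.0431, adjusted p = 1.00) and 186.1 ± 40.7 in Gpnmb+ (0.75 ± 0.26, p = 0.011, adjusted p = 0.993, edgeR). With 1 mouse left out, the unadjusted p of Sqstm1 stayed under 0.05 in 4 of 10 analyses between the ages (-0.38 without 6-month mouse 2) and in 9 of 10 against Gpnmb+, where it was 0.44 without the 5 retinas with few genes (edgeR p = 0.136, adjusted p = 1.00). In moderate retinas Prdx1, a peroxiredoxin, had a log2 fold change of 0.75 ± 0.35 (edgeR p = 0.0435, adjusted p = 0.585), which was 0.23 without DBA/2J mouse 1 (edgeR p = 0.580, adjusted p = 1.00). Its unadjusted p stayed under 0.05 in 4 of 10 such analyses. In mild retinas Txnrd1, thioredoxin reductase, had no count in either sum, as did 1 of the 5 Gpnmb+ mice, whose mean was 17.8 ± 12.4 CPM (edgeR p = 0.00145, adjusted p = 0.795; DESeq2 adjusted p = 6.39e-05).

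Immediate early and heat shock genes, which respond to cell handling as well as to signals in tissue, were followed because Fth1 and Hmox1 are stress genes. Of these, 12 of 15 had an unadjusted edgeR p under 0.05 and a lower level in 12-month DBA/2J than in Gpnmb+, against 318 of 12977 genes tested. None had such a p and a higher level, and the median log2 fold change of the 15 was -1.20. The 15 genes were measured in the same mice and are not independent results. Jun, a subunit of the AP-1 transcription factor, was at 2237 ± 499 CPM in DBA/2J and 5385 ± 2310 in Gpnmb+ (log2 fold change -1.27 ± 0.32, p = 0.000834, adjusted p = 0.433, edgeR). In moderate retinas 12 of 15 also had such a p and a lower level, against 593 of 15965 genes, with a median of -1.83 for the list. None passed the adjusted threshold with edgeR. DESeq2 called 2 of the 15 in 12-month DBA/2J, among them Egr2 (DESeq2 adjusted p = 0.00156), and 6 in moderate retinas, and edgeR without the filter on low counts called 8 in moderate retinas, among them Jun, Junb, Ier2 and Btg2. Over all genes these analyses called 226 of 23729, 268 of 24415 and 33 of 26664. Without the 5 Gpnmb+ retinas with few genes, 4 of 15 in place of 12 had an unadjusted edgeR p under 0.05 and a lower level in 12-month DBA/2J, and 7 in place of 12 in moderate retinas. Over all genes, 378 of 14282 and 714 of 15730 were lower with such a p in that setting. Without Gpnmb+ mouse 1 there were 8 and 10 of the 15, against 404 of 13607 and 676 of 15851 genes. The log2 fold change of Jun in 12-month DBA/2J was -0.85 without those retinas. The part of these genes in the values of the iron genes was not tested.

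For each of the 6 genes, the genes most like it were ranked by the Pearson correlation of log2 CPM over the 15 mice. The ranking covered 7028 abundant genes, with the ferritin look-alike rows left out. Fth1 was most like the processed pseudogenes Gm15501 (r = 0.96) and Gm9794 (r = 0.94) and the ribosomal protein gene Rps14 (r = 0.92). Neither pseudogene was among the rows that resemble ferritin. Ftl1 was most like Cyba (r = 0.91), Tpt1 (r = 0.89) and Pfn1 (r = 0.88). Slc40a1 was most like Ccnd3 (r = 0.91), P2ry13 (r = 0.90), a microglial purine receptor, and Abi1 (r = 0.89).

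Hmox1 was most like Mydgf (r = 0.98), Ndufv1 (r = 0.98) and Prdx4 (r = 0.97), and Slc11a1 most like Spns3 (r = 0.93), Txn2 (r = 0.92) and Gps1 (r = 0.92). Tfrc had the weakest matches, Mlxip (r = 0.85), Zfp715 (r = 0.82) and Mlxipl (r = 0.81). These correlations describe mice that share groups, depth and, for Hmox1, Slc11a1 and Tfrc, libraries in which the gene had no count. Between the 6 genes themselves the next highest after the ferritin pair was Slc40a1 with Hmox1 (r = 0.62), and Fth1 with Slc40a1 had r = -0.25.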

How the data were processed

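The authors deposited 1 table per retina with an expected count, an estimated number of reads that need not be whole, and a TPM value per gene, per the file headers. Salmon 1.4.0, DESeq2 1.30.1, R 4.0.3 and the mm10 build are listed in the submitters' processing notes without their roles. Which aligner and annotation release served is not given in the sources used here. A deposited table of FPKM values with 24 columns was not used.

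Expected counts were rounded to whole numbers and summed over the eyes of a mouse, or of a mouse and grade. The 6 genes, the gene lists and the tests were chosen with earlier results of these data known. IDs were matched to GENCODE M21 without their version (47310 of 47729 had a symbol). Genes were tested over the whole table with edgeR 4.0.16 in R 4.3.3 (TMM scaling, filterByExpr set to counts of at least 10 and totals of at least 15), with 1 fit of all 15 mice, 1 of 17 sums by grade and 1 of 7 sums for the trend, and an adjusted threshold of 0.05. CPM are counts per 1e6 of the TMM-scaled total of the genes tested. TPM, as deposited by the authors, were averaged over the eyes of a mouse. Where a gene had no count, 3 counts were taken as the upper limit, for counting error only. Ferritin look-alike rows were found by aligning transcripts with BLAST (E-value of at most 1e-20). Ftmt and genes named Fthl17 were left out by name. The scripts were tested on simulated counts.

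Named were the 6 genes, look-alike rows with counts, up to 4 genes of each list with the smallest unadjusted p under 0.05, and the 3 genes most like each of the 6 (mean log2 CPM of at least 4, prior count 2). Lyz2 and the subunit ratio were added after values were seen. Alternatives were DESeq2 1.42.0, RLE scaling, no filter, a filter of 50 counts in 5 sums, single retinas with a random mouse effect (voomLmFit, limma 3.58.1), the compared groups alone, the animal number as a replicate block, leaving out 2 shallow retinas or 5 retinas with few genes, look-alike rows added, and leaving out each mouse.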

Additional observations from a re-analysis of the deposited data

Results flagged for a closer look

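In 2 of 18 sets of 5 mice (6 genes in 3 groups), 1 mouse stood apart from the other 4 by a large gap, by a rule that chance passes in about 1 in 20 groups of normally distributed values. The rate for Tfrc, with mice at 0, was not tested. Ftl1 in Gpnmb+ mouse 1 was at 3055 CPM, with the next mouse at 1558 CPM, a gap of 0.796 of the whole range. Both of its retinas had fewer than 10000 genes with counts. Tfrc in 12-month DBA/2J mouse 5 was at 17.4 CPM, with the next mouse at 2.05 CPM, a gap of 0.883 of the range. All of its counts came from the moderate left eye, and the mild right eye had none.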

How the results depend on the processing

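The number of the 6 genes called was 0 in every comparison and alternative with 2 exceptions. DESeq2 called 1 gene in mild retinas (Tfrc), and the analysis without a filter called 1 in moderate retinas (Fth1); the cause was not tested. Fth1 between the ages kept its direction in every alternative and with any 1 mouse left out. It was the 1 gene of the 6 with an unadjusted edgeR p under 0.05 in that comparison. A reversal in the same mice was therefore unlikely beforehand, and the kept direction is no sign of stability. Over all genes, calls depended on the tool: edgeR called none in the 7 comparisons, DESeq2 called 226, 148, 179, 518, 268, 236 and 128, voomLmFit 8, 5 and 40 in the 3 comparisons of groups, and edgeR without the filter 2 between the ages, 31, 33 and 10 in mild, moderate and severe retinas and 6 in the trend. Single retinas with a random mouse effect moved the median log2 fold change of all genes to 0.59, -0.43 and 1.09 in the 3 comparisons of groups. Tfrc, Hmox1 and Slc11a1 had no count in some retinas, where depth sets only an upper limit. For Tfrc these included libraries of 12499967 and 14004414 counts.

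Directions of values that passed no test reversed as follows. Without the 5 retinas with few genes, the log2 fold change was -0.06 for Hmox1 in 12-month DBA/2J against Gpnmb+, and -0.33 for Slc40a1 and -0.01 for Slc11a1 in 6-month DBA/2J against Gpnmb+. In the same setting it was 0.15 for Ftl1 and -0.52 for Slc40a1 in mild, 0.51 for Tfrc and -0.23 for Slc11a1 in moderate, and 0.14 for Ftl1 and -0.21 for Hmox1 in severe retinas. Without the 2 shallow retinas it was -0.03 for Fth1 and 0.04 for Hmox1 in mild and -0.03 for Slc11a1 in moderate retinas. With voomLmFit it was 1.42 for Hmox1 and 1.73 for Tfrc in 6-month DBA/2J against Gpnmb+, where the median over all genes was 1.09. The trend of Ftl1 was 0.02 without the filter, 0.00 with the 50-count filter and 0.08 without the shallow retinas. Tfrc was not fitted in the trend under the 50-count filter.

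With the animal number as a replicate block, the log2 fold change of Fth1 was 0.56 against Gpnmb+ and 0.80 between the ages, and Hmox1 reversed to 0.04 in 6-month DBA/2J against Gpnmb+. The median over all genes in these comparisons was 0.31, -0.005 and 0.27 with the block. Mice share only a number: the deviations of same-numbered mice correlated between -0.05 and 0.09, and the block changed no call. Leaving out 1 mouse at a time turned some values over 0. The ranges were -0.02 to 0.67 for Hmox1 in 12-month DBA/2J against Gpnmb+ and -2.43 to 0.22 for Tfrc between the ages. In 6-month DBA/2J against Gpnmb+ they were -0.37 to 0.05 for Ftl1, -0.05 to 0.79 for Slc40a1 and -0.47 to 0.33 for Hmox1. In mild retinas they were -0.59 to 0.58 for Fth1, -0.76 to 0.36 for Ftl1, -0.81 to 0.59 for Slc40a1 and -2.22 to 0.54 for Hmox1. In moderate retinas Tfrc ranged from -3.08 to 0.29 and Slc11a1 from -0.19 to 0.16. In severe retinas Ftl1 ranged from -0.28 to 0.23, Slc40a1 from -1.14 to 0.20 and Hmox1 from -0.15 to 0.55. For the trend they were -0.43 to 0.35 for Fth1, -0.38 to 0.22 for Ftl1, -0.74 to 0.35 for Slc40a1, -0.32 to 0.58 for Hmox1, -1.75 to 7.21 for Tfrc and -0.01 to 0.21 for Slc11a1. Of the genes named from the lists, none reversed under any alternative, and 17 values came past the adjusted threshold, under DESeq2 or without the filter. These genes were named for an unadjusted p under 0.05 in the main edgeR fit of the same mice. That choice made a reversal unlikely beforehand, so their kept directions are no sign of stability. Where a grade was left with 1 sum, that sum was assumed to vary like the other groups.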
